A study of Homo sapiens with 12 samples.

Results

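The genes described here carry signals from receptors of the tumour necrosis factor family to survival or to cell death: the TRAF adaptors TRAF1, TRAF2 and TRAF3, the death adaptor FADD, the initiator caspases CASP8 and CASP10, and the inhibitors CFLAR, BIRC3 and XIAP. They were chosen by name, from this pathway, and each was read from the row of the deposited expression table that carries its symbol alone, the brightest row standing for a gene with several. Of the 9 genes listed, 7 could be read this way, on 8 rows because CFLAR has 2, out of 18404 named genes and 32321 rows in the table. TRAF2 and BIRC3 were not analysed here.

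Ligand-bound receptors such as CD30 and CD40 recruit TRAF proteins, which pass the signal to NF-kB. TRAF3, with TRAF2 and the ubiquitin ligases BIRC2 and BIRC3, keeps the kinase NIK (encoded by MAP3K14) at a low level, and NF-kB in turn is known to raise transcription of TRAF1, BIRC3 and CFLAR. Death receptors such as FAS recruit FADD, which brings CASP8 and CASP10 molecules together so that they activate each other. CFLAR, a caspase-like protein, joins that complex and restrains CASP8, while XIAP binds and blocks caspases further down. The Hodgkin and Reed-Sternberg cells of Hodgkin lymphoma, which derive from B cells, are known for constant NF-kB activity and abundant TRAF1.

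Values come from 12 expression arrays of a pair of established Hodgkin lymphoma lines, U-HO1, kept in IMDM medium, and L-1236, kept in RPMI 1640 medium. In each line 3 arrays are labelled siGATA-3 (cells given an shRNA against the transcription factor GATA-3) and 3 are labelled siSCR (cells given a control shRNA without function). All groups share the viral transduction, 3 days of culture, the sort of 25000 GFP-positive cells per sample and the amplification of their RNA. Each line was grown in its own medium, so line and medium cannot be told apart, and fewer cells expressing a gene cannot be told apart from less RNA per cell. Levels are on a scale taken as log2, and a level of 1 gene is not set against that of another.

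Array medians lay between 6.96 and 7.09, and arrays of the same line correlated over all rows at 0.986 or more. GATA3, the target of the shRNA, did not follow the labels throughout: it read 10.12 to 11.07 on U-HO1 arrays labelled siGATA-3 against 10.24 to 11.24 on those labelled siSCR, and 10.00 to 10.80 on L-1236 arrays labelled siGATA-3 against 9.95 to 10.69 on those labelled siSCR. Both pairs of groups overlapped, so siGATA-3 and siSCR are used below as labels of arrays. The 8 Hodgkin cell markers summed to 77.94 to 80.13 in U-HO1 and 76.85 to 79.61 in L-1236. On siSCR arrays 4 were higher in U-HO1, 2 were lower and 2 did not pass (limma, adjusted p under 0.05). In either direction 25.8% of all rows passed there, and 32% of named genes by their brightest row. The marker counts of this paragraph stand beside that share. TNFRSF8, which encodes CD30, read 10.04 to 10.50 in U-HO1 and 9.36 to 9.92 in L-1236, whereas the chemokine gene CCL22 read 6.75 to 7.39 in U-HO1 and 8.31 to 9.69 in L-1236. The 7 B-cell markers measured summed to 47.73 to 48.71 in U-HO1 against 52.95 to 54.71 in L-1236. On siSCR arrays 0 of them were higher in U-HO1, 3 were lower and 4 did not pass. The B-cell regulator PAX5 and the surface protein CD22 were among those lower. The defining B-cell marker MS4A1 was among those that did not pass, at only 5.63 to 5.94 in both lines. The 6 T-cell markers summed to 36.36 to 37.62 in U-HO1 and 36.28 to 37.1 in L-1236, and the 6 monocyte and macrophage markers to 37.11 to 38.22 in U-HO1 and 37.19 to 38.26 in L-1236. The 6 epithelial and fibroblast markers summed to 41.1 to 41.41 in U-HO1 and 40.95 to 42.2 in L-1236. The part of the B-cell difference in the results below was not tested.

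Start sites of TRAF1 and CFLAR, whose results differ most between the lines, and of TRAF3, which did not pass, are shown first. Each runs from 250 bases before to 50 bases after the annotated start (RefSeq, GRCh38.p14, 5′ to 3′ on the strand of the gene). TRAF1 is shown by the farthest upstream of its 3 annotated starts, chr9:120929122-120929421 on the minus strand. CFLAR is shown by the first of its 4 starts, chr2:201118466-201118765 on the plus strand. TRAF3, the other TRAF measured among the 9 genes listed, is shown by chr14:102777199-102777498 on the plus strand. Capitals mark matches to the NF-kB (kappaB) consensus on either strand.
TRAF1: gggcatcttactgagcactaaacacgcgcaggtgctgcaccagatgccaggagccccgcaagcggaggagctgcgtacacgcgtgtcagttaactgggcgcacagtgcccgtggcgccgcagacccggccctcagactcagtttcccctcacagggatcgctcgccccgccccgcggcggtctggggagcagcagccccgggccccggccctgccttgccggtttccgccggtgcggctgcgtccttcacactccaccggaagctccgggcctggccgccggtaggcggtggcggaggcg
CFLAR: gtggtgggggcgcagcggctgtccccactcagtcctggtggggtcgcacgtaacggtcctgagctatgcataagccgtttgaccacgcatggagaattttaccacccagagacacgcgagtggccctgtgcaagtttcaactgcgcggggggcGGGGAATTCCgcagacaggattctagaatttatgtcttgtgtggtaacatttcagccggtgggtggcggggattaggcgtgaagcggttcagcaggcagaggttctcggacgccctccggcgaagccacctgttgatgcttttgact
TRAF3: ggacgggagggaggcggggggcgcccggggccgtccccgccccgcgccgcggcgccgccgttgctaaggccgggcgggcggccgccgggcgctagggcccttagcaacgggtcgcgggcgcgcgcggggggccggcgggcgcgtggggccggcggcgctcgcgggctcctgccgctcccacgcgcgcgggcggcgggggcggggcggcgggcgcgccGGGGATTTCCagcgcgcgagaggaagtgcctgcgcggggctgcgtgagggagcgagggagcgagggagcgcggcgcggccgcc
A kappaB match stood in the CFLAR window, GGGGAATTCC from base 154, and in the TRAF3 window, GGGGATTTCC from base 218, and in none of the 3 TRAF1 windows. Of the 7 genes measured, 6 had windows, 15 in all, and 2 of the 15 held a match, beside 5.909% of the 35116 windows of all genes. The interferon-type element GAAANNGAAA, searched on both strands, was found in 1 window, a CASP8 start at chr2:201233213-201233512 on the plus strand. The element lies on the opposite strand there, so the strand of the gene reads TTTCTGTTTC from base 248. Of all windows, 3.57% held the element. These matches describe letters within the windows and show no binding. CFLAR, CASP10 and CASP8 lie side by side, in this order, among the protein-coding genes of chromosome 2.

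The first comparison asked how the lines differ on siSCR arrays. U-HO1 held much more TRAF1 RNA than L-1236 and less CFLAR RNA by the brighter of the CFLAR rows but not by the other, while TRAF3, FADD, CASP8, CASP10 and XIAP differed by at most 0.33 on the log2 scale and did not pass the test. At an adjusted p under 0.05 by limma (Benjamini-Hochberg over all rows), 2 of the 7 genes passed, 1 higher and 1 lower in U-HO1. Among all rows 25.8% passed, 13.3% higher and 12.5% lower, and 32% of named genes passed by their brightest row, so the share among these genes was near that of the array as a whole. The sizes of TRAF1 and CFLAR, rather than the number of calls, are what the following values describe.

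**Figure D1:**
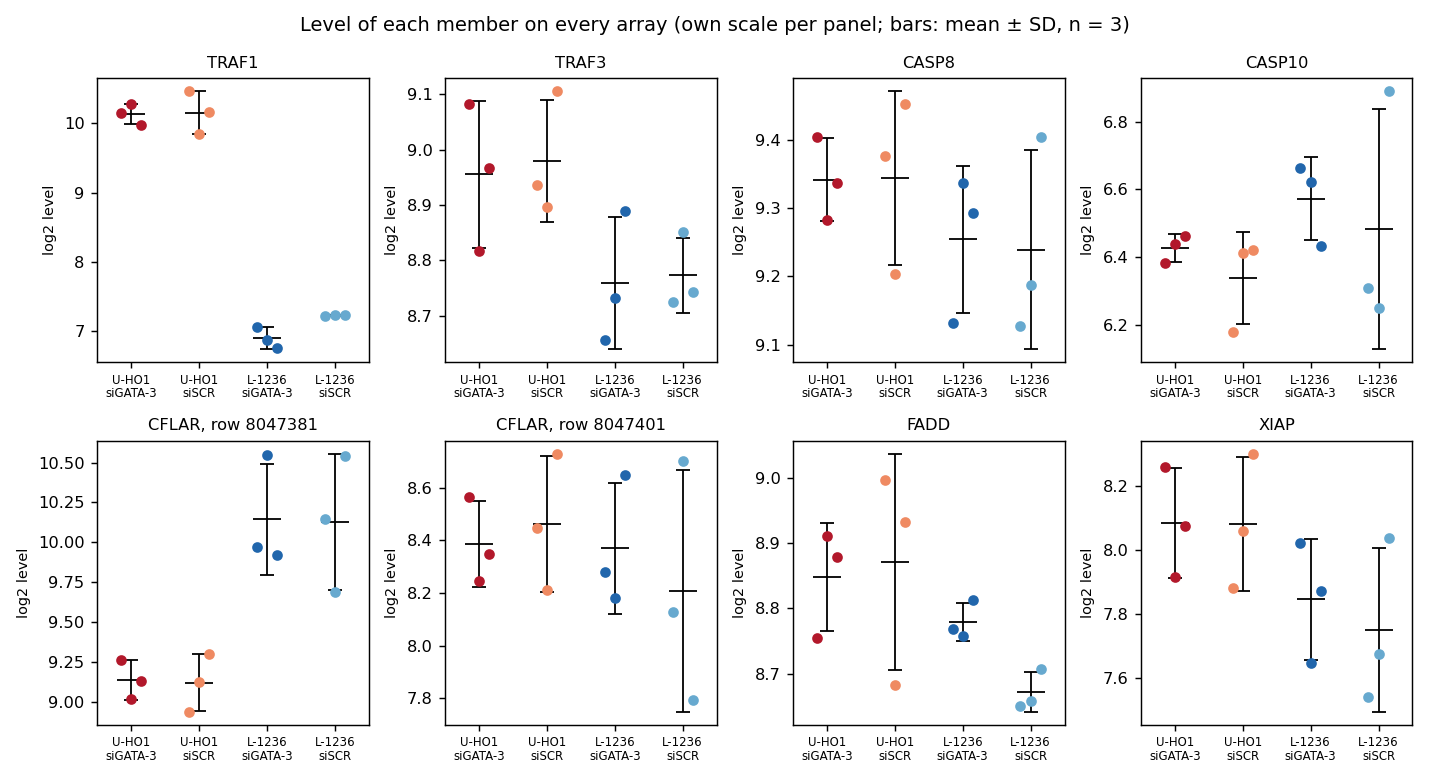
Level of each gene on the 12 arrays (vertical axis, log2 level, own scale per panel), with 3 arrays per group and the group mean and SD as bars. TRAF1 is far higher in U-HO1, CFLAR row 8047381 is lower in U-HO1, and the line means of the other panels differ by at most 0.33 under either label.

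TRAF1, the TRAF protein that has no RING domain and works together with TRAF2, read 10.46, 9.85 and 10.16 on U-HO1 siSCR arrays, against 7.21, 7.23 and 7.23 on L-1236 siSCR arrays. No U-HO1 array came within 2 log2 units of any L-1236 array. The difference was 2.93 (SE 0.14, 95% interval 2.63 to 3.23), a 7.62-fold higher level in U-HO1, with an adjusted p of 2.40e-08 and rank 116 by p among the 32321 rows. On siGATA-3 arrays TRAF1 read 10.15, 10.28 and 9.98 in U-HO1, against 7.07, 6.88 and 6.75 in L-1236. There the difference was 3.24 (SE 0.14, 95% interval 2.94 to 3.54), 9.42-fold, with an adjusted p of 9.90e-09. Over both labels TRAF1 was higher on all 6 U-HO1 arrays than on all 6 L-1236 arrays. On L-1236 arrays TRAF1 read 6.75 to 7.23, near the array medians of 6.96 to 7.09. No background level is given, so whether these L-1236 values lie above background is not known, and the folds rest on them.

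TRAF3, which restrains the NF-kB kinase NIK, read 8.94, 8.90 and 9.11 on U-HO1 siSCR arrays, against 8.73, 8.85 and 8.74 on L-1236 siSCR arrays. These groups did not overlap, yet the difference of 0.21 (SE 0.09, 95% interval 0.01 to 0.41) missed the threshold, with an adjusted p of 0.135. Groups that did not overlap were seen for TRAF1, TRAF3 and CFLAR, 3 of the 7 genes, beside 34.7% of all rows. On siGATA-3 arrays TRAF3 read 9.08, 8.82 and 8.97 in U-HO1, against 8.66, 8.73 and 8.89 in L-1236, and the groups overlapped (difference 0.20, adjusted p = 0.160). Compared over both labels, an alternative added after seeing the data, TRAF3 passed with a difference of 0.20 (adjusted p = 0.0298).

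The caspases of the death-receptor complex were close in the lines. CASP8, the initiator caspase, read 9.38, 9.20 and 9.45 on U-HO1 siSCR arrays, against 9.13, 9.19 and 9.41 on L-1236 siSCR arrays. The groups overlapped, and the difference of 0.10 had a 95% interval from -0.10 to 0.31 (adjusted p = 0.514). CASP10, its closest relative, read 6.18, 6.41 and 6.42 in U-HO1, against 6.31, 6.25 and 6.89 in L-1236. L-1236 replicate 3 stood well above the others of its group, and the difference of -0.15 (95% interval -0.46 to 0.17, adjusted p = 0.563) changed sign to 0.06 without it. CASP10 gave low values throughout, and the table gives no background level, so whether it lies above background is not known.

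FADD, the adaptor that recruits CASP8, read 8.998, 8.68 and 8.93 on U-HO1 siSCR arrays, against 8.65, 8.66 and 8.71 on L-1236 siSCR arrays. The L-1236 values were tightly grouped and the lowest U-HO1 array fell among them. The difference was 0.20 (SE 0.08, 95% interval 0.02 to 0.38, adjusted p = 0.113), and without that U-HO1 array, replicate 2, it was 0.29 and passed (adjusted p = 0.0119).

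CFLAR, the inhibitor of CASP8, read 8.94, 9.12 and 9.30 on U-HO1 siSCR arrays, against 10.15, 9.69 and 10.54 on L-1236 siSCR arrays by row 8047381, its brighter row. Every U-HO1 array lay below every L-1236 array, and the L-1236 arrays were the more spread, with an SD of 0.43 against 0.18 in U-HO1. The difference was -1.01 (SE 0.21, 95% interval -1.46 to -0.56), a 2.01-fold lower level in U-HO1, with an adjusted p of 0.00305. On siGATA-3 arrays CFLAR read 9.26, 9.01 and 9.13 in U-HO1, against 9.97, 10.54 and 9.92 in L-1236. The difference there was again -1.01 (95% interval -1.46 to -0.56, adjusted p = 0.00312).

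The other CFLAR row, 8047401, did not show this difference. It read 8.45, 8.21 and 8.73 on U-HO1 siSCR arrays, against 8.13, 8.70 and 7.79 on L-1236 siSCR arrays, with a difference of 0.25 (95% interval -0.21 to 0.71, adjusted p = 0.467). On siGATA-3 arrays it read 8.56, 8.25 and 8.35 in U-HO1, against 8.28, 8.18 and 8.65 in L-1236 (difference 0.02, adjusted p = 0.974). Row 8047381 is annotated with 20 transcript records of CFLAR, 1 of them from RefSeq, and row 8047401 with 7, all 7 from RefSeq, and the rows share 0 records. Averaged over both rows the CFLAR difference was -0.38 on siSCR arrays (adjusted p = 0.0195) and -0.50 on siGATA-3 arrays, so its size depends on the row read. Over the 6 U-HO1 arrays the rows correlated at 0.63, and over the 6 L-1236 arrays at -0.86, given as a description of arrays that differ in interferon genes too.

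XIAP, the caspase inhibitor, read 7.88, 8.06 and 8.30 on U-HO1 siSCR arrays, against 7.54, 7.67 and 8.03 on L-1236 siSCR arrays. The groups overlapped through L-1236 replicate 3. The difference was 0.33 (SE 0.15, 95% interval 0.00 to 0.66, adjusted p = 0.144), and without L-1236 siSCR replicate 3 it was 0.47 and passed (adjusted p = 0.0396). On siGATA-3 arrays XIAP read 8.26, 7.92 and 8.07 in U-HO1, against 8.02, 7.64 and 7.87 in L-1236 (difference 0.24, adjusted p = 0.320).

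**Figure D2:**
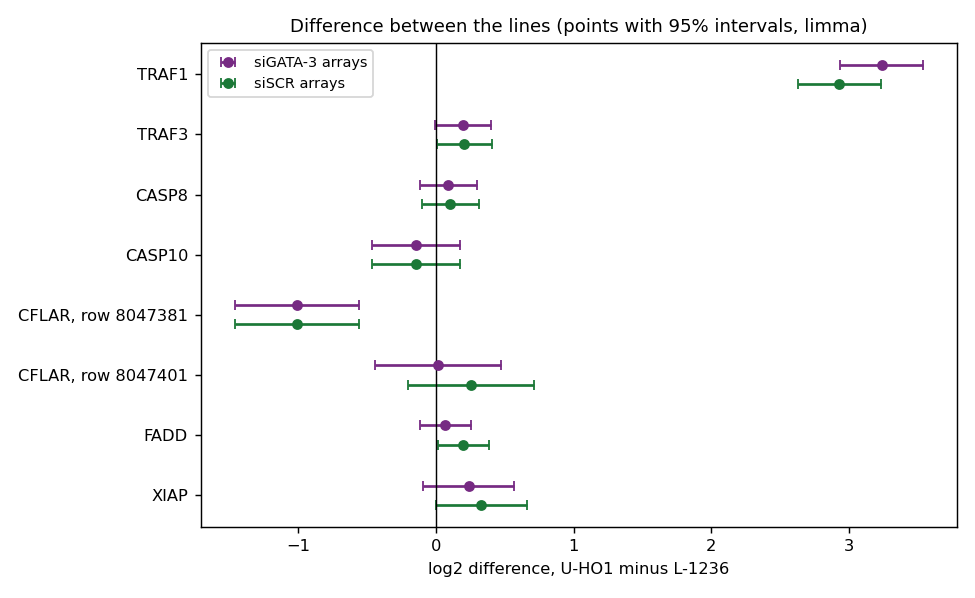
Difference between the lines (horizontal axis, log2, U-HO1 minus L-1236) for each row, with siGATA-3 arrays above siSCR arrays, points for the limma estimate and bars for the 95% interval. TRAF1 lies near 3 and CFLAR row 8047381 near -1 under both labels, while the other rows lie between -0.15 and 0.33.

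On siGATA-3 arrays the same genes, TRAF1 and CFLAR, were the 2 that passed, beside 24.7% of all rows (12.2% higher and 12.5% lower in U-HO1). CASP8 read 9.40, 9.28 and 9.34 on U-HO1 siGATA-3 arrays, against 9.13, 9.34 and 9.29 on L-1236 siGATA-3 arrays (difference 0.09, adjusted p = 0.605). CASP10 read 6.38, 6.44 and 6.46 in U-HO1, against 6.66, 6.62 and 6.43 in L-1236 (difference -0.14, adjusted p = 0.569). FADD read 8.75, 8.91 and 8.88 in U-HO1, against 8.77, 8.76 and 8.81 in L-1236 (difference 0.07, adjusted p = 0.654). For all of these the groups of the lines overlapped, CASP10 by a single L-1236 array, replicate 3.

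Interferon-response genes varied strongly among L-1236 arrays, and the levels of CFLAR and CASP10, picked after the values were seen, are set beside them here. The mean of 19 such genes lay between 8.02 and 8.30 on U-HO1 arrays, against 9.06, 9.77 and 8.41 on L-1236 siGATA-3 arrays and 7.92, 7.69 and 9.93 on L-1236 siSCR arrays. The highest CFLAR levels by row 8047381, 10.54 each, were on L-1236 siSCR replicate 3 and siGATA-3 replicate 2, the arrays with the highest interferon means, and the highest CASP10 level, 6.89, was on that same siSCR replicate 3. Over the 6 L-1236 arrays CASP10 followed the interferon mean with Pearson r = 0.94 (exact permutation p = 0.00972) and Spearman rho = 0.94 (exact p = 0.0167). The r was 0.89 without the 2 arrays farthest from the median. The adjusted p was 0.156, the smallest over the 16 relations computed, so neither this relation nor any other passed the correction. For CFLAR row 8047381 r was 0.84 (exact permutation p = 0.0472, adjusted p = 0.292), rho was 0.77 (exact p = 0.103), and r was 0.63 without those 2 arrays. For row 8047401 r was -0.70 (exact permutation p = 0.129, adjusted p = 0.292), rho was -0.66 (exact p = 0.175), and r was -0.19 without them. Over the 6 U-HO1 arrays, whose interferon means span little, the sign was the opposite for CFLAR row 8047381 (r = -0.75, exact permutation p = 0.101, rho = -0.54, exact p = 0.297, adjusted p = 0.292, r = 0.10 without the 2 farthest arrays) and for CASP10 (r = -0.30, exact permutation p = 0.621, rho = 0.26, exact p = 0.658, adjusted p = 0.710, r = 0.62 without those arrays), though for CASP10 only by r. This relation was looked for after the values were seen, and its part in the differences between the lines was not tested. Without L-1236 siSCR replicate 3 the CFLAR difference by row 8047381 on siSCR arrays went from -1.01 to -0.80 (limma, adjusted p = 0.0120). Without L-1236 siGATA-3 replicate 2 that on siGATA-3 arrays went from -1.01 to -0.81 (limma, adjusted p = 0.0144). Leaving out single arrays does not separate this relation from the line.

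**Figure D3:**
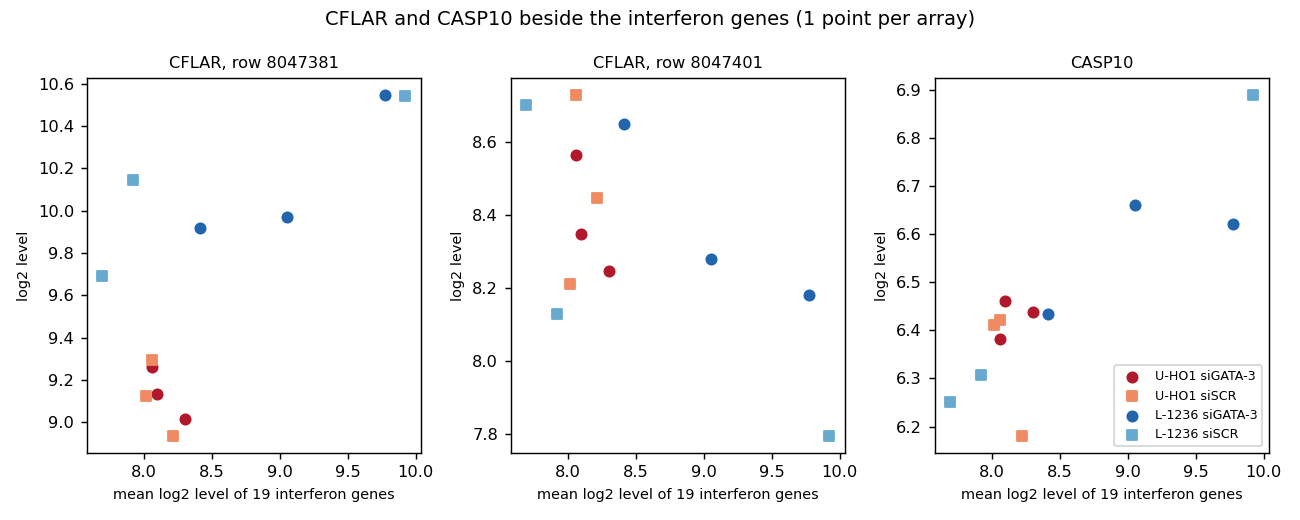
Level of the CFLAR rows and of CASP10 (vertical axes, log2) against the mean log2 level of 19 interferon-response genes (horizontal axis), 1 point per array, with circles for siGATA-3 and squares for siSCR. U-HO1 points are bunched between 8.02 and 8.30 on the horizontal axis, and L-1236 points run from 7.69 to 9.93.

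Other genes of the pathway were listed by role and counted on siSCR arrays, by the same test over all rows, whose median difference was 0.00. As above, 25.8% of all rows and 32% of named genes passed in either direction, and each count below stands beside that share. Among the TRAF proteins and their partners, 6 of 12 were higher in U-HO1, 3 were lower and 3 did not pass (median 0.28). TRAF5, an adaptor of CD40 and CD27, was lower, with a difference of -1.43 (adjusted p = 2.98e-07), as was TDP2, a DNA repair enzyme that also binds TRAF proteins, with -0.90. The TRAF3-binding protein TRAF3IP3 was higher by 1.19 and the TRAF-binding regulator TANK by 0.98. Thus, of the TRAF genes named here, TRAF1 and TRAF5 differed in opposite directions, while TRAF3 did not pass. Further TRAF genes enter the counts of the list only, and some of them passed as well.

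Of 7 other caspases measured out of 9, 2 were higher in U-HO1, 0 were lower and 5 did not pass (median -0.06). Those that passed were CASP2 with 0.55 (adjusted p = 0.00912) and CASP14, known from skin, with 0.43 (adjusted p = 0.00812). Of the IAP family and its antagonists, 4 of 9 were higher, 2 were lower and 3 did not pass (median 0.31). BIRC5, known as survivin and needed for cell division, was higher by 1.04, and the antagonist DIABLO by 0.37. BIRC2, the ligase that works with TRAF2 on NIK, was lower, with -1.04 (adjusted p = 1.00e-04), as was NAIP, a sensor of bacterial proteins, with -1.11.

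In the death-receptor complex and its ubiquitin enzymes, 2 of 16 measured genes out of 18 were higher in U-HO1, 6 were lower and 8 did not pass (median -0.36). TNFAIP3, the ubiquitin-editing NF-kB inhibitor A20, was higher by 2.21 (4.63-fold, adjusted p = 1.54e-06), and SHARPIN, of the linear ubiquitin ligase complex, by 0.55. DAP3, a mitochondrial ribosomal protein, was lower, with -0.47, as was the death-effector-domain protein DEDD2, with -0.51. Among receptors and ligands, 5 of 16 were higher, 5 were lower and 6 did not pass (median -0.02). TNFSF10, which encodes the death ligand TRAIL, was higher by 2.93 (SE 0.39, 7.61-fold, adjusted p = 1.28e-04), its receptor TNFRSF10A by 1.39 and CD70, the ligand of CD27, by 1.02. TNFSF10 was widely spread on L-1236 siSCR arrays, at 7.92, 8.45 and 9.89, the highest on replicate 3, the array with the highest interferon mean. CD40, a receptor of B cells, was lower, with -1.96 (adjusted p = 5.21e-07).

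Among the NF-kB steps, 8 of 14 measured genes out of 15 were higher in U-HO1, 2 were lower and 4 did not pass (median 0.30). MAP3K14, which encodes NIK, was higher by 1.41 (adjusted p = 5.12e-05) and the subunit RELB by 0.32. The inhibitor NFKBIE was lower, with -0.89, as was the subunit gene NFKB1, with -0.56. On siGATA-3 arrays, where 24.7% of all rows passed, 4 were higher, 3 were lower and 7 did not pass. The difference between the counts under the 2 labels was not tested.

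**Figure D4:**
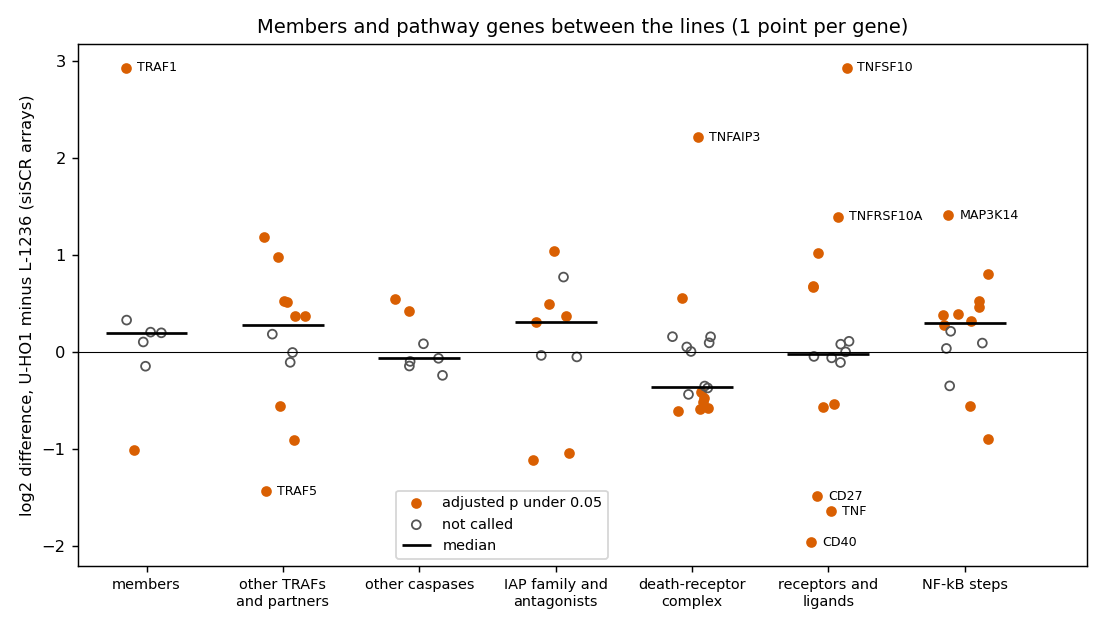
Difference between the lines on siSCR arrays (vertical axis, log2, U-HO1 minus L-1236) for the genes described and for 6 lists of pathway genes, 1 point per gene, filled where the adjusted p was under 0.05, with a line at each list's median. TRAF1 and TNFSF10 both lie at 2.93, and most points of every list lie within 1 of 0.

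The study's own question was what the shRNA against GATA-3 changes within each line. In U-HO1 no gene of the set passed at an adjusted p under 0.05 or by the submitters' criteria (25% false discovery and 1.5-fold), and by those criteria no row of the table did (0% called), with 1.05% of rows at an unadjusted p under 0.05. The largest difference among the 7 genes was 0.09, for CASP10, with a 95% interval from -0.23 to 0.41. TRAF1 averaged 10.14 ± 0.15 on siGATA-3 arrays and 10.16 ± 0.31 on siSCR arrays of U-HO1 (SD, n = 3 each), a difference of -0.02 with a 95% interval from -0.32 to 0.28. CFLAR, by row 8047381, averaged 9.14 ± 0.12 on siGATA-3 arrays and 9.12 ± 0.18 on siSCR arrays (SD, n = 3 each), with a 95% interval of the difference from -0.43 to 0.47. None of the 7 genes had groups that did not overlap, beside 3.79% of all rows, and 0 of the 7 were under an unadjusted p of 0.05 by limma.

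In L-1236 no gene of the set passed either, and no row met the submitters' criteria (0% called, 4.77% at an unadjusted p under 0.05). TRAF1 read 7.07, 6.88 and 6.75 on arrays labelled siGATA-3, against 7.21, 7.23 and 7.23 on arrays labelled siSCR. Every siGATA-3 array was below every siSCR array, and the difference was -0.33 (SE 0.14, 95% interval -0.63 to -0.03), with an unadjusted p of 0.0354 and an adjusted p of 0.925. These TRAF1 levels lie near the array medians, and whether they lie above background is not known. FADD read 8.77, 8.76 and 8.81 on siGATA-3 arrays, against 8.65, 8.66 and 8.71 on siSCR arrays, also without overlap, with a difference of 0.11 (95% interval -0.08 to 0.29, adjusted p = 0.925). Groups without overlap, as in these 2 of 7 genes, were seen in 10.7% of all rows. XIAP differed by 0.10, CASP10 by 0.09, CFLAR by 0.02, CASP8 by 0.01 and TRAF3 by -0.01, all with overlapping groups. The interval of CFLAR, -0.43 to 0.47, is wider than those of CASP8 (-0.19 to 0.22) and TRAF3 (-0.21 to 0.19).

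The difference between the siGATA-3 effects in the lines was tested directly, as an interaction. No gene of the set and no row passed (0% called, 2.46% at an unadjusted p under 0.05). For TRAF1 the effect in U-HO1 minus that in L-1236 was 0.31 (SE 0.19, 95% interval -0.12 to 0.73, unadjusted p = 0.141), so the lower TRAF1 on siGATA-3 arrays of L-1236 is not shown to be particular to that line. In each of the 6 pathway lists 0 genes passed in U-HO1, in L-1236 and for the interaction. These comparisons share arrays with those between the lines, and GATA3 itself differed between the labels by -0.32 in U-HO1 (95% interval -1.003 to 0.36) and by 0.04 in L-1236 (95% interval -0.64 to 0.71).

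**Figure D5:**
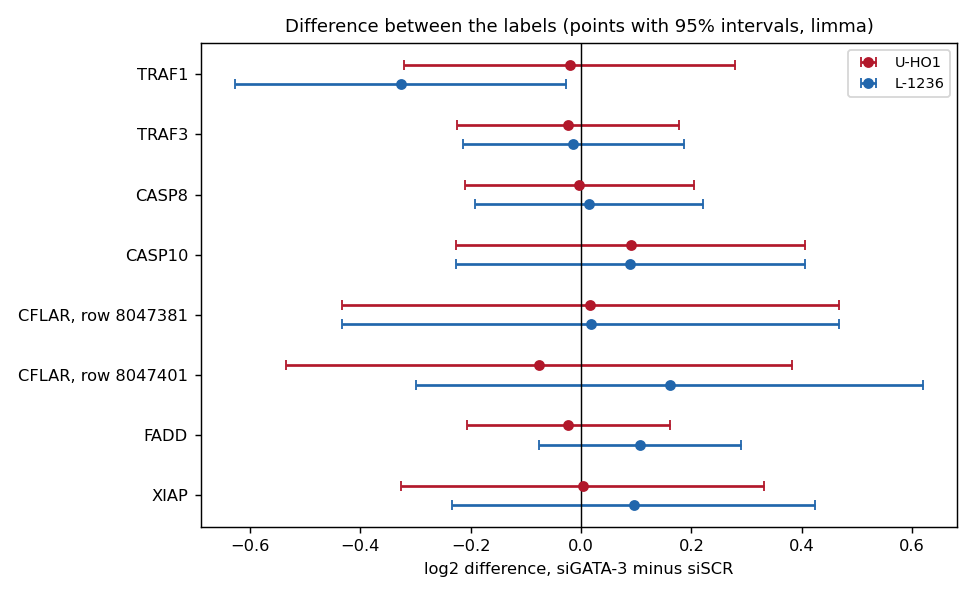
Difference between the labels (horizontal axis, log2, siGATA-3 minus siSCR) for each row, U-HO1 above L-1236, with points for the limma estimate and bars for the 95% interval. All intervals cross 0 except that of TRAF1 in L-1236, which runs from -0.63 to -0.03 and did not pass after adjustment.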

How the data were processed

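The deposited values are 12 columns of array data that the authors normalized, read as log2 because they span 3.86 to 13.99. The submitters' processing notes name R 2.8.1. How the background was corrected and the probes summarised is not given in the sources used here, so the sizes of folds rest on that reading. Of 32321 rows, 19158 carried 1 gene symbol through the platform annotation, 1388 several and 11775 were unnamed here. Of those with 1 symbol, 19128 matched a current gene table by Entrez identifier.

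All 12 arrays entered 1 limma fit (limma 3.58.1, R 4.3.3, lmFit and eBayes) with a mean per group, 8 residual degrees of freedom and no filter on dim rows. P-values were adjusted by Benjamini-Hochberg over all rows, and a gene passed at an adjusted p under 0.05. Named genes are the 9 listed, GATA3, up to 4 genes with the smallest p of each pathway list, and the 3 genes most correlated over the arrays with each listed gene that passed. Cell markers named beside them (TNFRSF8, CCL22, PAX5, CD22 and MS4A1) come from the marker lists and were picked after their values were seen. The genes and lists were chosen with earlier results of these data known. The fit was tested on simulated data. The design text names 3 independent samples per group but no separate cultures, so the p-values cover the spread among arrays, which may be technical, and their number limits the precision. Alternatives were quantile normalization, centred medians, dim rows left out, 1 row per gene, the mean over rows of a gene, a fit to the 6 arrays compared, a prior both trended and robust, weights for array quality (statmod 1.5.0), a replicate block and leaving out each array. Added after seeing the data were both labels together and leaving out siGATA-3 replicate 1 and siSCR replicate 3 of each line, whose GATA3 went against the label.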

Additional observations from a re-analysis of the deposited data

How the results depend on the processing

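TRAF1 and CFLAR passed between the lines under every alternative run, with 2 or 3 of the 7 genes passing. CFLAR was read there by row 8047381 or by the mean over its rows, and no alternative read row 8047401 alone. In the main fit row 8047401 differed by 0.25 on siSCR arrays (limma, adjusted p = 0.467). It differed by 0.02 on siGATA-3 arrays (limma, adjusted p = 0.974) and passed under neither label. On siSCR arrays TRAF1 ranged from 2.78 to 3.08 and CFLAR from -1.23 to -0.38, and on siGATA-3 arrays TRAF1 ranged from 3.16 to 3.32 and CFLAR from -1.16 to -0.50, the smallest CFLAR sizes being the means over both rows. Calls were gained in these cases, and the cause was not tested: TRAF3 on siGATA-3 arrays with quantile normalization (0.22, adjusted p = 0.0314) and with array quality weights (0.22, adjusted p = 0.0254), TRAF3 with both labels together (0.20), FADD without U-HO1 siSCR replicate 2 (0.29) and XIAP without L-1236 siSCR replicate 3 (0.47). Without the 4 arrays whose GATA3 went against the label, CFLAR was -0.89 on siSCR and -1.16 on siGATA-3 arrays, CASP10 turned to 0.02 on siSCR arrays and CASP8 to -0.01 on siGATA-3 arrays, neither of which had passed, and TRAF1 differed by -0.41 between the labels in L-1236 without passing. Within the lines 0 genes passed under any alternative, where differences near 0 changed sign in 20 of 104 recomputed values in U-HO1, 15 of 104 in L-1236 and 32 of 139 for the interaction. The rows that passed numbered 8343 on siSCR arrays, from 5873 to 11340 over the alternatives. With a replicate block 2 of the 7 genes and 8333 rows passed on siSCR arrays and 0 genes within either line. Arrays with the same number correlated, after their group means were taken out, at -0.17, 0.06 and 0.32 in U-HO1 and at 0.17, -0.40 and -0.22 in L-1236. Arrays with different numbers correlated at -0.38 to 0.38 in U-HO1 and at -0.34 to 0.54 in L-1236. With 3 arrays per group these values cannot tell whether arrays of the same number were handled together. Dim levels such as those of CASP10, and of TRAF1 in L-1236, cannot be set against a background.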

Other observations

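The genes whose levels over the 12 arrays lay closest to TRAF1 were MGC70870 (Pearson r = 0.997), the dynein gene DNAH7 (0.995) and MSN, which encodes moesin (0.995). With the 4 group means taken out the r values were 0.78, 0.75 and 0.69. For CFLAR, row 8047381, they were the carboxypeptidase gene SCPEP1 (0.985), GDPD1 (0.978) and the deubiquitinase gene USP49 (0.977), and with the group means taken out 0.97, 0.94 and 0.90. These are descriptions over arrays that share 2 lines, and the genes were picked as the closest of all.

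On siGATA-3 arrays all 22 pathway genes named in the report as passing on siSCR arrays had the same direction, and 21 of them passed by limma at an adjusted p under 0.05. The exception was CASP2, which differed by 0.40 there (adjusted p = 0.0505) and had differed by 0.55 on siSCR arrays. The 22 were picked by smallest p in each list, in the same lines and the same fit, so their agreement is no independent test. Over whole lists, genes that did not pass went from 4 on siSCR arrays to 7 on siGATA-3 arrays among NF-kB steps. They went from 3 to 5 among TRAF proteins and partners, 5 to 6 among other caspases and 3 to 4 in the IAP family. They stayed at 8 in the death-receptor complex and went from 6 to 5 among receptors and ligands. Among all rows 25.8% passed on siSCR arrays and 24.7% on siGATA-3 arrays, and the changes in these counts were not tested. On siGATA-3 arrays TNFAIP3 differed by 2.16, TNFSF10 by 2.32, MAP3K14 by 1.13, CD40 by -1.95, TRAF5 by -1.52 and BIRC2 by -1.09 (U-HO1 minus L-1236).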
